A study of Mus musculus with 9 samples.

Results

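The 10 genes described here encode 2 chaperonins, the barrel-shaped machines that fold other proteins inside a closed chamber. Tcp1, Cct2, Cct3, Cct4, Cct5, Cct6a, Cct7 and Cct8 encode the 8 subunits of the cytosolic chaperonin CCT (also called TRiC). Hspd1 encodes HSP60, the barrel of the mitochondrial matrix, and Hspe1 encodes HSP10, the lid that closes it. The genes were chosen by symbol among the 24421 symbols of the deposited count table, and all 10 passed the low-count filter that left 13270 genes for testing.

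RNA sequencing was done on mouse cells (C57BL/6 background) grown from bone marrow depleted of lineage-positive cells and expanded for 5 days with IL-3, IL-6 and SCF into cells described as resembling myeloid blasts. The 9 libraries form 3 groups of 3: wild-type (WT) cells given vehicle, Tet2-/-Flt3ITD cells given vehicle, and Tet2-/-Flt3ITD cells given SHP099 for 24 h. Mutant cells are labelled as knockouts of Tet2, which encodes an enzyme that oxidises methylated cytosine, and as carrying Flt3ITD, the internal tandem duplication of a growth factor receptor, and SHP099 is an allosteric inhibitor of the phosphatase SHP2. Mutant cultures were each set up from an individual mouse, whereas the labels name no individual mice for WT cultures and describe no WT cells given SHP099, so p-values reflect only the spread among these cultures.

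CCT takes in newly made actin and tubulin, which cannot reach their folded state without it, along with many proteins built of WD40 repeats. Its ring holds 1 copy of each subunit in a fixed order, so the complex draws on all 8 genes. HSP60 and HSP10 fold proteins after their import into mitochondria, downstream of the mitochondrial HSP70 encoded by Hspa9. Hspd1 and Hspe1 lie head to head on opposite strands, a classic example of a bidirectional promoter with heat shock elements.

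Heat shock elements are repeats of a short unit read as GAA or, from the other strand, TTC. They are shown first because the only long run in these genes' promoter windows lies where windows of Hspd1 and Hspe1 overlap. Promoter windows of 300 bases (250 before to 50 after a RefSeq start, GRCm38.p6) were found for 9 of the 10 genes and numbered 12, since Cct2, Cct5 and Hspd1 have more than 1 listed start. Stretches of 30 bases around the matches are given 5′ to 3′ on each gene's own strand, with the matched heat shock units in capitals:
Hspe1, plus strand, chr1:55088053-55088082: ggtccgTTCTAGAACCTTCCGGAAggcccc
Hspd1, minus strand, the same bases: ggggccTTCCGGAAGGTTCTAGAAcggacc
Cct6a, plus strand, chr5:129787369-129787398: gcgtaagacttTTCGAGAAgaccccgcaga
Cct5, minus strand, chr15:31601862-31601891: acagcggccgaTTCCAGAAgctactctgcg
Cct2, minus strand, chr10:117063399-117063428: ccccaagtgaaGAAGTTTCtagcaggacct

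The capitals in the stretch shared by Hspe1 and Hspd1 are a run of 4 units, TTCNNGAA followed after any pair of bases by TTCNNGAA, which reads as the same motif on both strands. It occupies chr1:55088059-55088076 and begins 89 bases before the Hspe1 start and 144 bases before a listed Hspd1 start. In GENCODE it lies inside Hspd1, 167 bases from the annotated gene start, exonic in 1 and intronic in 1 of the 3 Hspd1 transcripts. Of 32851 RefSeq promoter windows searched on both strands, 5 held this run, or 0.0152%. Those windows belong to Hspd1, Hspe1, Arpc2, Fam149a and Chordc1, and those of Hspd1 and Hspe1 hold the same bases. A run of 4 units starting with GAA instead was in 4 windows (0.0122%), those of Kctd18, Gm38873, Chordc1 and Gm41230.

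Single pairs of units were common and were seen in CCT genes too. TTCNNGAA stood in 8.52% of all windows and in windows of Cct5, Cct6a, Hspd1 and Hspe1, and GAANNTTC stood in 7.86% of all windows and in windows of Cct2, Hspd1 and Hspe1. The Cct6a match is exonic in 1 of 7 transcripts, the Cct2 match intronic in 3 of 7, and the Cct5 match lies outside the annotated gene. The ETS motif CCGGAAG, found in 8.86% of windows, was in windows of Tcp1, Cct2, Cct8, Hspd1 and Hspe1, and in the last pair it overlaps the heat shock run. The E-box CACGTG (7.15% of windows) was found only in Hspd1 among the 9 genes. GC boxes, GGGCGG, were in at least 1 window of each of the 9 genes and in 35.7% of all windows. The CCAAT box was in windows of Tcp1, Cct3, Cct6a, Cct7 and Hspd1 and in 37.4% of all windows, and the NRF1 motif, GCGCA and GCGC with any base between them, was in windows of Cct3, Cct5 and Hspd1 and in 4.60% of all. These are matches of letters in a window, and binding was not measured.

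**Figure D1:**
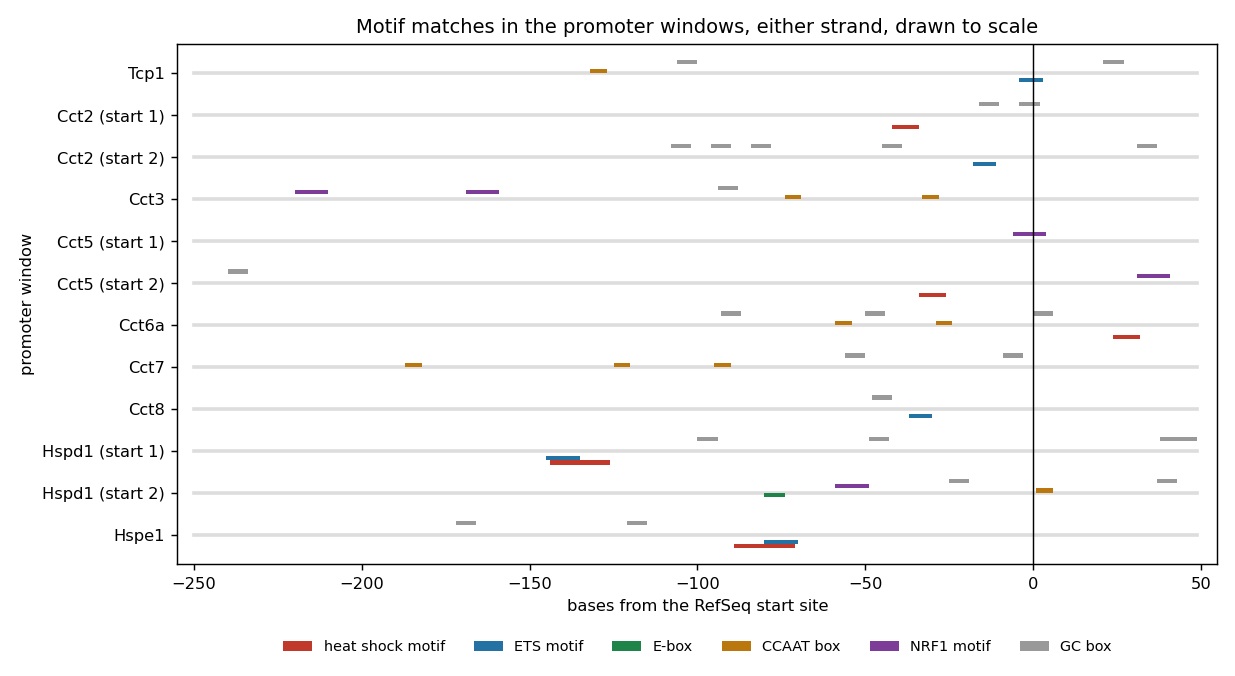
Motif matches in the 12 RefSeq promoter windows of 9 chaperonin genes. The x axis is distance in bases from the listed start site, each grey line is 1 window of 300 bases, and coloured bars are matches on either strand drawn to scale; the longest red bars, 18 bases each, are the 4-unit heat shock run in Hspd1 (start 1) and Hspe1.

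Depth and cell makeup were examined for all libraries before the comparisons. Total counts per library ran from 27242168 to 45810089, and replicates of a group differed by more than sampling noise (chi-square per degree of freedom 10.5 to 110). The ribosomal RNA precursor Rn45s took 0.734%, 0.658% and 4.33% of the counts in SHP099 replicates 1 to 3, all above the 0.276% to 0.357% of mutant vehicle libraries. WT libraries had 0.377% to 0.705%. SHP099 replicate 3 stood apart, so results are also given without it. Tet2 stood at 33.2 ± 1.48 CPM in WT, 15.5 ± 1.30 in mutant vehicle and 12.4 ± 1.28 in SHP099-treated cells (CPM is counts scaled to TMM-adjusted library sizes; SD, n = 3). Reads on Tet2 thus remained in mutant cells, and a total per gene cannot tell deleted exons from retained ones. Myeloid progenitor markers (8 genes, among them Mpo and Kit) summed to 12171 to 20385 CPM over all libraries, and 7 lymphoid markers summed to at most 0.827 CPM, with Pax5 at 0.

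The chaperonin genes took 0.387% to 0.429% of all counts in WT cells, 0.490% to 0.501% in mutant vehicle cells and 0.417% to 0.445% in SHP099-treated cells. All 3 mutant vehicle libraries lay above the other 6. Within the 10 genes, counts per library ran from 1725 for Hspe1, the shortest, to 29077 for Hspd1. Hspe1 therefore has the largest relative counting error of the set.

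**Figure D2:**
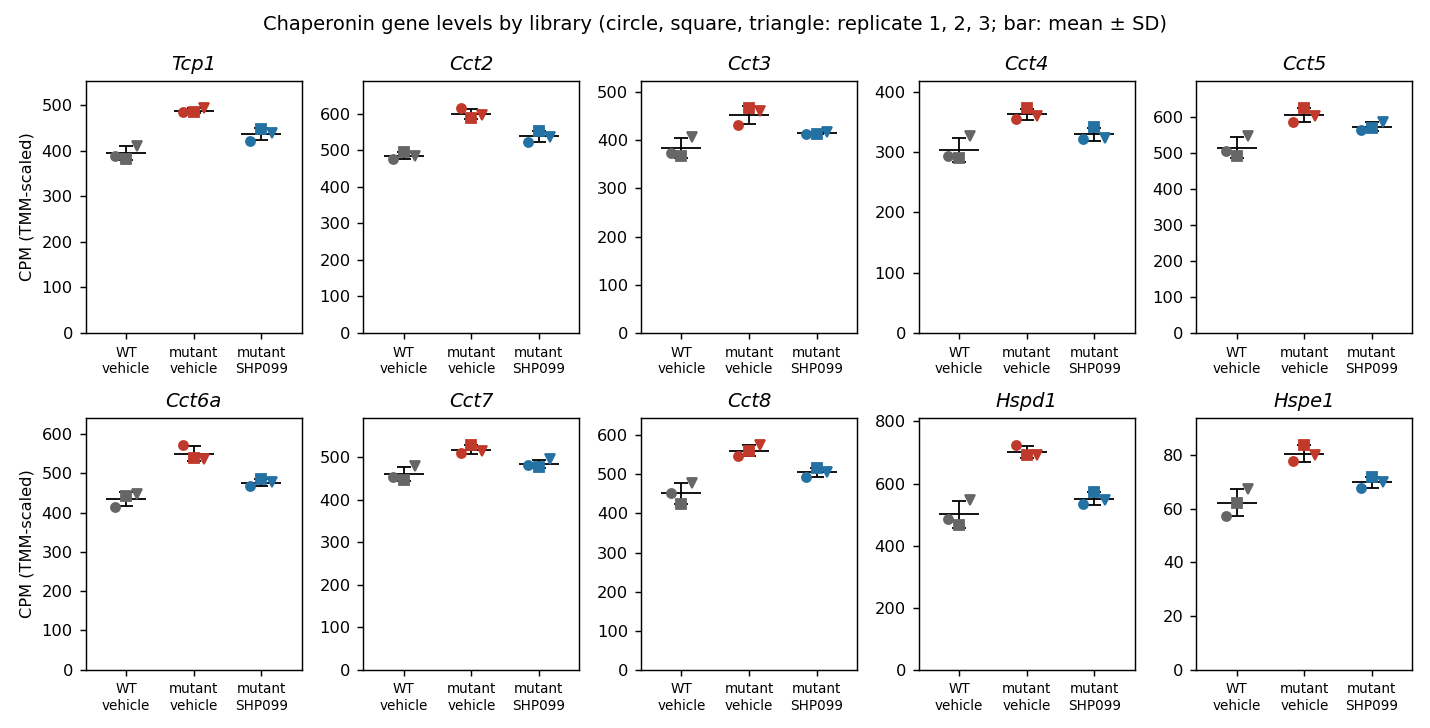
CPM of each chaperonin gene in the 9 libraries, 1 panel per gene with its own y axis starting at 0; symbols are replicates and bars are mean ± SD (n = 3). In every panel the 3 mutant vehicle libraries lie above the 3 WT libraries, and in every panel but Cct5 they lie above the 3 SHP099 libraries.

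The first comparison asked what SHP2 inhibition did to chaperonin transcripts in mutant cells. Hspd1, Cct6a, Hspe1, Tcp1 and Cct2 fell with SHP099, by 10.2% to 21.6%, and no chaperonin gene was called higher. That is 5 of 10 genes called lower (edgeR quasi-likelihood test, Benjamini-Hochberg adjusted p at most 0.05), against 13.0% of all genes tested called lower, 8.81% higher and 21.8% in either direction. DESeq2 called 0 higher and 6 lower, against 1462 and 1660 of 13270 genes. At an unadjusted edgeR p under 0.05, 0 were higher and 9 lower. The share of all genes at that unadjusted threshold is not given here. All 10 fold changes were below 0, against 6533 of 13270 genes tested. Each gene was lower in 3 of 3 same-numbered cultures. For 9 of the 10 this adds nothing, because all treated libraries lay below all vehicle libraries. The median log2 fold change of the 10 was -0.15, against 0.00 over all genes. In bulk samples, fewer cells of a type and less RNA per cell cannot be told apart.

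The mitochondrial pair was measured first. Hspd1, the HSP60 barrel, stood at 725, 693 and 691 CPM in vehicle replicates 1, 2 and 3, and at 534, 573 and 547 CPM in the SHP099 libraries. All treated libraries lay below all vehicle libraries, and the means were 703 ± 19.1 and 551 ± 19.9 CPM (SD, n = 3). Its log2 fold change was -0.35 ± 0.06 (SE, edgeR adjusted p = 0.0036), a fall of 21.6%. Hspe1, the HSP10 lid, stood at 77.6, 83.8 and 79.9 CPM with vehicle and at 67.7, 71.7 and 69.9 CPM with SHP099. The groups did not overlap, and the log2 fold change was -0.21 ± 0.06 (edgeR adjusted p = 0.0293).

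Among CCT subunits, Cct6a (subunit zeta) had the smallest adjusted p. It stood at 573, 539.6 and 538 CPM with vehicle and at 467, 485 and 478 CPM in the treated libraries, and its log2 fold change was -0.21 ± 0.04 (edgeR adjusted p = 0.0093). The treated libraries all lay below the vehicle libraries, with a gap wider than the spread within either group. Tcp1 (subunit alpha, the gene that names the family) went from 485, 484 and 493 CPM to 422, 447 and 439 CPM, at -0.16 ± 0.04 (edgeR adjusted p = 0.0208). Cct2 (subunit beta) went from 615, 587 and 595 CPM to 523, 553 and 537 CPM, at -0.16 ± 0.04 (edgeR adjusted p = 0.0193). Neither gene's groups overlapped.

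The other 5 subunits did not pass the test. Cct8 (theta) missed it narrowly, with 546, 561 and 576 CPM with vehicle, 494, 516 and 507 CPM in treated cells, and a log2 fold change of -0.15 ± 0.05 (edgeR adjusted p = 0.0522). Cct4 (delta) had 354, 373 and 359.9 CPM against 321, 342 and 324 CPM (log2 fold change -0.14 ± 0.05, edgeR adjusted p = 0.0828). Cct3 (gamma) had 432, 467 and 460.4 CPM against 412, 414 and 416 CPM (-0.13 ± 0.05, edgeR adjusted p = 0.0793). In these genes all treated libraries lay below all vehicle libraries, as they did in Cct7. Cct7 (eta) had 510.2, 530.0 and 516 CPM against 481, 476 and 495 CPM (-0.10 ± 0.04, edgeR adjusted p = 0.107). Cct5 (epsilon) had 586, 624 and 603 CPM against 562, 569 and 586 CPM (-0.08 ± 0.05, edgeR adjusted p = 0.287) and was the 1 gene of the 10 whose groups overlapped. Groups without overlap were thus seen in 9 of 10 genes, against 40.7% of all genes tested.

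Same-numbered vehicle and SHP099 libraries pair by culture. A fit of these 6 libraries with the culture as a block called 8 of the 10 genes lower, against 21.3% of all genes in that fit. Its edgeR adjusted p was 1.65e-07 for Hspd1, 0.000181 for Hspe1, 0.000246 for Cct6a, 0.0022 for Tcp1 and 0.0043 for Cct2. For Cct8, Cct4 and Cct3 that fit gave adjusted p = 0.0044, 0.0054 and 0.0127. Cct7 (adjusted p = 0.0576) and Cct5 (adjusted p = 0.147) did not pass in it. With a per-library trend on transcript length and GC content removed, all 10 were called lower, against 9.04% of all genes, and Hspe1 moved to -0.38. All 3 SHP099 libraries exceeded all mutant vehicle libraries in Rn45s, and its part in the SHP099 result was not tested. Without SHP099 replicate 3, the library highest in Rn45s, Hspd1 (-0.34, adjusted p = 0.0185) and Cct6a (-0.21, adjusted p = 0.0384) were called and Tcp1, Cct2 and Hspe1 were at adjusted p = 0.0641, 0.07 and 0.0843. Without SHP099 replicate 1, 1 gene was called, Hspd1, and Cct6a stood at edgeR adjusted p = 0.0503. Without vehicle replicate 2 the count was 3, and without vehicle replicate 3 it was 2. Over all genes, 1094 of 13352 were called lower without SHP099 replicate 3 and 1125 of 13345 without SHP099 replicate 1. The numbers were 1322 of 13344 without vehicle replicate 2 and 1090 of 13446 without vehicle replicate 3. In the main fit 1721 of 13270 were called lower. The 9 fits without single libraries had no culture block. Across them, the Hspe1 call was lost in 6, those of Tcp1 and Cct2 in 4 each and that of Cct6a in 1. Hspd1 was called under all 18 alternatives to the test.

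Markers of other cell types moved in the same comparison. Summed neutrophil markers (10 genes) were 17651 to 18707 CPM with vehicle and 25513 to 30483 CPM with SHP099, with 4 of 10 called higher. The 8 monocyte and macrophage markers summed to 964 to 1045 CPM and 1379 to 1499 CPM (2 of 8 higher), and the 9 mast cell markers to 731 to 956 CPM and 1150 to 1357 CPM (4 of 9 higher). Summed megakaryocyte markers were 1318 to 1798 CPM and 1619 to 2161 CPM (2 of 8 higher). The 8 erythroid markers summed to 57.1 to 86.5 CPM and 77.5 to 103 CPM with none of the 6 tested called, and Hbb-bs and Hba-a1 were at 0. Of the 8 progenitor markers, 1 was higher. The part of these cell types in the fall of the chaperonin genes was not tested.

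The second comparison set mutant cells against WT cells, both given vehicle. All 10 chaperonin genes were higher in mutant cells, by 12.6% to 40.4%, against 16.9% of all genes tested called higher, 14.7% lower and 31.6% in either direction. In each gene the lowest mutant library lay above the highest WT library, which held for 45.1% of all genes. The median log2 fold change of the 10 was 0.31, against 0.02 over all genes. Vehicle libraries of mutant cells stand in this comparison and in the SHP099 comparison, so the 2 sets of fold changes are not independent.

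Hspd1 again had the largest fold change of the 10. Its WT level was 486, 467 and 548 CPM in replicates 1, 2 and 3, a mean of 500.4 ± 42.1 against 703 ± 19.1 in mutant vehicle cells (SD, n = 3), and the log2 fold change was 0.49 ± 0.06 (SE, edgeR adjusted p = 0.000658). WT replicate 3 was the highest WT library and lay below each mutant library. Hspe1 stood at 57.2, 62.0 and 67.3 CPM in WT cells, and its log2 fold change was 0.37 ± 0.06 (edgeR adjusted p = 0.00166).

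All 8 CCT subunits were called higher. Cct6a stood at 414, 442 and 446 CPM in WT cells and was higher in mutant cells by 0.34 ± 0.04 in log2 (edgeR adjusted p = 0.000809). Tcp1 stood at 388, 382 and 411 CPM (0.31 ± 0.04, edgeR adjusted p = 0.000962), Cct2 at 475, 494 and 484 CPM (0.31 ± 0.04, edgeR adjusted p = 0.000762) and Cct8 at 453, 425 and 479 CPM (0.31 ± 0.05, edgeR adjusted p = 0.00166). These 4 subunits were each higher by 23.6% to 26.7%. The other 4 also rose: Cct4 from 303 ± 20.0 to 362 ± 9.69 CPM, Cct3 from 383 ± 20.6 to 453 ± 18.6 CPM, Cct5 from 515 ± 29.8 to 604 ± 19.3 CPM and Cct7 from 461 ± 17.0 to 519 ± 10.2 CPM. Their log2 fold changes were 0.26, 0.24, 0.23 and 0.17, with edgeR adjusted p = 0.0055, 0.0049, 0.0068 and 0.0107.

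Cct7, the smallest of the 10 fold changes, lost its call without mutant vehicle replicate 2 or without WT replicate 2 (adjusted p up to 0.0565), and the other 9 genes were called whichever library was left out. Markers of other cell types differed here too. In WT against mutant vehicle cells, megakaryocyte markers summed to 2919 to 3666 and 1318 to 1798 CPM (8 of 8 lower in mutant cells), mast cell markers to 1510 to 1668 and 731 to 956 CPM (8 of 9 lower), and erythroid markers to 147 to 215 and 57.1 to 86.5 CPM (6 of 6 tested lower). Neutrophil markers summed to 24138 to 30582 and 17651 to 18707 CPM, with 6 of 10 lower and 1 higher, and monocyte and macrophage markers to 830 to 1039 and 964 to 1045 CPM, with 1 of 8 lower and 1 higher. Of the 8 progenitor markers, 1 was higher. Their part in the higher chaperonin levels was not tested.

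**Figure D3:**
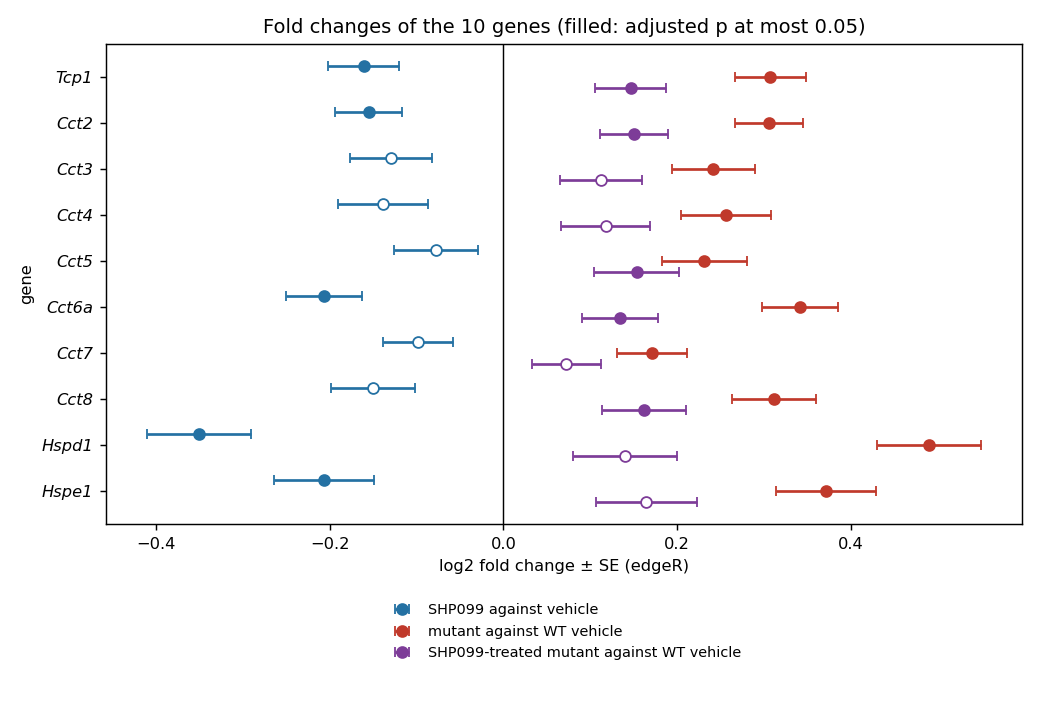
Log2 fold changes of the 10 chaperonin genes in the 3 comparisons, with standard errors; filled points have an edgeR adjusted p of at most 0.05. SHP099 against vehicle lies below 0 for every gene, mutant against WT above 0 for every gene and filled throughout, and SHP099-treated mutant against WT between 0.07 and 0.16.

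The third comparison set SHP099-treated mutant cells against WT cells given vehicle, so that genotype and drug differ together. Tcp1 (0.15), Cct2 (0.15), Cct5 (0.15), Cct6a (0.13) and Cct8 (0.16, all log2 fold changes) were called higher, with edgeR adjusted p = 0.0232, 0.0165, 0.0379, 0.0416 and 0.0304. This is 5 of 10, against 15.4% of all genes called higher, 16.3% lower and 31.7% in either direction. Hspd1 was not called, at 551 ± 19.9 against 500.4 ± 42.1 CPM (0.14 ± 0.06, edgeR adjusted p = 0.102), and SHP099 replicates 1 and 3 lay below WT replicate 3. Hspe1 was at 0.16 (edgeR adjusted p = 0.054), Cct3 at 0.11 (adjusted p = 0.0984), Cct4 at 0.12 (adjusted p = 0.109) and Cct7 at 0.07 (adjusted p = 0.192). Groups did not overlap in 7 of 10 genes, against 47.9% of all genes, and overlapped in Cct4, Cct7 and Hspd1.

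This count was the least stable of the 3. It was 0 without SHP099 replicate 2, 0 without SHP099 replicate 3 and 0 with the length and GC trend removed. It was 1 without WT replicate 1 or WT replicate 2, 3 without SHP099 replicate 1 or vehicle replicate 3, and 8 without WT replicate 3. Over all genes, the main fit called 2045 of 13270 higher. The fits just listed called from 1080 of 13352 (without SHP099 replicate 3) to 1865 of 13446 (without vehicle replicate 3). Among the 18 alternatives, Cct2 was called in 13, Tcp1 and Cct8 in 11 each, Cct5 in 8 and Cct6a in 3. In WT against treated mutant cells, neutrophil markers summed to 24138 to 30582 and 25513 to 30483 CPM (1 of 10 higher, 2 lower) and megakaryocyte markers to 2919 to 3666 and 1619 to 2161 CPM (8 of 8 lower). Of the other lists, 5 of 9 mast cell markers were lower and 1 higher, 5 of 6 erythroid markers tested were lower, 5 of 8 monocyte and macrophage markers were higher and 3 of 8 progenitor markers were higher. Their part in this comparison was not tested.

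Levels of the genes were then set against each other per kilobase of the longest coding transcript. In WT cells Cct5 led with 278 ± 16.1 CPM per kilobase, followed by Cct2 with 247 ± 4.70. Hspd1 (207 ± 17.4), Cct3 (194 ± 10.4), Cct8 (189 ± 11.3) and Cct7 (189 ± 6.96) formed a stretch in which neighbours overlapped. Below them stood Cct6a (177 ± 7.01), Tcp1 (161 ± 6.23), Cct4 (122 ± 8.05) and Hspe1 (80.3 ± 6.48), each apart from the next. In mutant vehicle cells the order was Cct5 (326), Cct2 (306), Hspd1 (290.1), Cct8 (234), Cct3 (229), Cct6a (224), Cct7 (212), Tcp1 (199), Cct4 (146) and Hspe1 (104), with overlap only among Cct8, Cct3 and Cct6a. In SHP099-treated cells Cct5 (309), Cct2 (274) and Hspd1 (228) again led, and overlap was seen between Cct8 (211) and Cct3 (209) and between Cct7 (198) and Cct6a (194), ahead of Tcp1 (178), Cct4 (132) and Hspe1 (90.1).

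The order depends on the length used. With all exons of a gene merged, Cct2 (189 CPM per kilobase) came before Hspd1 and Cct5 (186) in WT cells, and Cct3 (60.1) and Cct7 (68.0) stood at places 9 and 8; their merged exons are 6370 and 6778 bases long against 1977 and 2441 in the longest coding transcript. Hspe1 was the lowest under both lengths. In TPM, which scales each library to a common sum of levels per length, the order was that of the longest coding transcript in each group. TPM used the same lengths, which fixes the order within a library, so it is not a separate check.

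**Figure D4:**
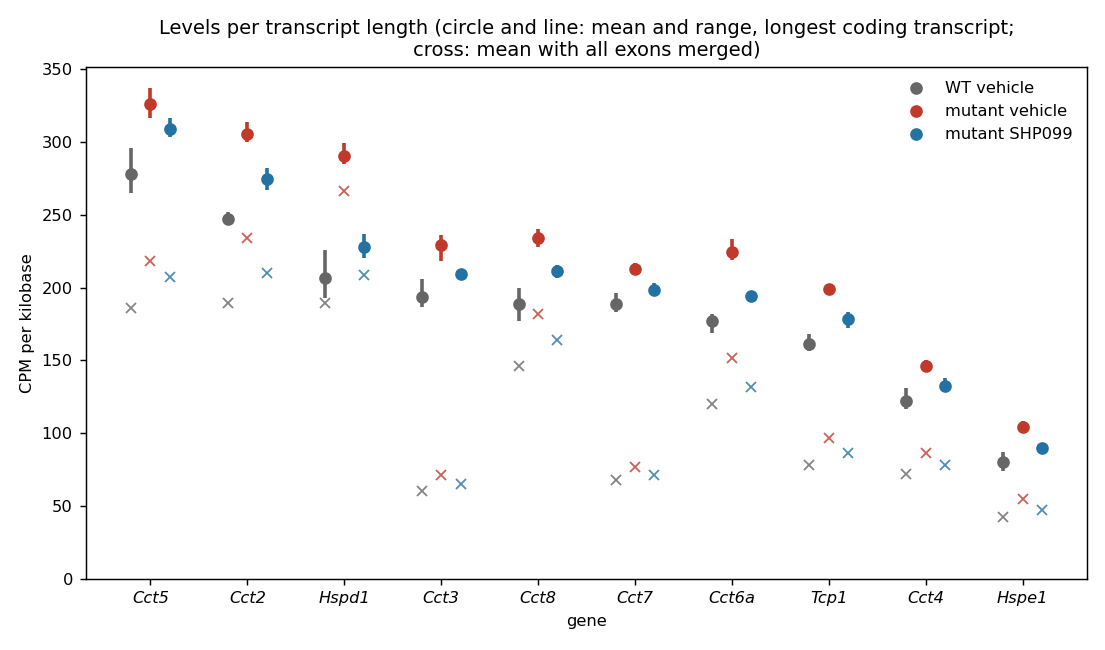
Level per kilobase of transcript for the 10 chaperonin genes, ordered as in WT cells. Circles and lines are the mean and range of 3 libraries over the longest coding transcript, and crosses are means over merged exons; Cct5 is the highest circle and Hspe1 the lowest in all 3 groups, and crosses fall furthest below circles for Cct3 and Cct7.

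Because the CCT ring uses its subunits in equal numbers, their balance within each library was described. Cct5 was the highest and Cct4 the lowest of the 8 in all 9 libraries, with a ratio between them of 2.22 to 2.43 (3.10 to 3.55 between the highest and lowest subunit with merged exons). The coefficient of variation over the 8 subunits was 24.4% to 26.5% in every library. The mean over the 8 was 189.6 to 203 CPM per kilobase in WT cells, 232 to 237 in mutant vehicle cells and 209 to 216 in SHP099-treated cells. Summed over the 8 genes, CCT reached 3426 ± 134, 4136 ± 32.7 and 3756 ± 64.5 CPM in these groups (SD, n = 3).

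Measured against the mean of the 8 in the same library, single subunits varied little. The spread of that log2 difference over 9 libraries was smallest for Tcp1 (0.06) and largest for Cct6a (0.18). Cct7 lay at -0.01 to 0.00 in WT cells and, in mutant cells, at -0.11 to -0.09 with vehicle and -0.11 to -0.04 with SHP099. The Hspd1 level was 1.02 to 1.11 times the CCT mean per kilobase in WT cells, 1.21 to 1.29 times in mutant vehicle cells and 1.05 to 1.10 times in SHP099-treated cells. The ratio of Hspd1 to Hspe1 per kilobase was 2.41 to 2.71, 2.64 to 2.98 and 2.50 to 2.55 in the same groups, overlapping between WT and mutant cells.

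Predicted gene models and RIKEN clones were left out of the search for genes like the chaperonins. Of the rest, those closest to the CCT mean over the 9 libraries were picked by root mean square difference of centred log2 CPM. They were Tardbp (0.02), Trmt6 (0.02), Utp6 (0.02), Eif2s1 (0.03) and Trap1 (0.03), against a median of 0.18 over all genes, 0.02 to 0.05 for the CCT members themselves and 0.06 and 0.11 for Hspe1 and Hspd1. Tardbp encodes the RNA-binding protein TDP-43, Trmt6 a subunit of a tRNA methyltransferase, Utp6 a factor of ribosomal RNA processing, Eif2s1 the alpha subunit of translation factor eIF2, and Trap1 the mitochondrial HSP90. For the mean of Hspd1 and Hspe1 they were Nop58 (0.03), Pus7 (0.04), Npm1 (0.04), Taf4b (0.04) and Ikbkap (0.04), against a median of 0.23. Nop58 is a core protein of box C/D small nucleolar particles, Npm1 a nucleolar chaperone, Pus7 a pseudouridine synthase, Taf4b a subunit of general transcription factor TFIID, and Ikbkap the scaffold of the tRNA-modifying Elongator complex. With the length and GC trend removed, the SHP099 fold change of Tardbp went from -0.15 to 0.04 and that of Nop58 from -0.26 to -0.02 (edgeR adjusted p = 0.818). Utp6 (edgeR adjusted p = 0.0601) and Eif2s1 (edgeR adjusted p = 0.0681) were then not called with SHP099 either, nor was Tardbp in mutant against WT cells (edgeR adjusted p = 0.0697).

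Gene lists around the chaperonins can be read against the shares of all genes tested, 13.0% called lower and 8.81% higher with SHP099, and 16.9% called higher and 14.7% lower in mutant against WT cells. Of 9 prefoldin and phosducin-like helpers, which deliver clients to CCT or regulate it, 1 was higher with SHP099 (Pfdn5, from 94.1 ± 3.35 to 111 ± 3.69 CPM, log2 fold change 0.24, edgeR adjusted p = 0.003) and none was lower (1 at an unadjusted p under 0.05, 0 by DESeq2). With the length and GC trend removed, Pfdn5 stood at 0.11 and was not called (edgeR adjusted p = 0.0751). In mutant against WT cells 2 were higher (Pfdn2 at 0.15 and Txndc9 at 0.20) and none lower, with 4 higher and 0 lower at an unadjusted p under 0.05. Txndc9 was not called with the trend removed (0.09, edgeR adjusted p = 0.257), and both calls were lost without vehicle replicate 2, vehicle replicate 3 or WT replicate 2. The median log2 fold changes of the 9 were 0.05 and 0.05 in the 2 comparisons.

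Clients of CCT were lower in mutant cells in 9 of 19 cases and higher in none by edgeR (1 at an unadjusted p under 0.05, 0 by DESeq2), with a median log2 fold change of -0.15. The tubulin genes Tubb2a (from 28.0 ± 0.905 to 12.8 ± 2.94 CPM, -1.13, edgeR adjusted p = 0.00101) and Tubb2b (-2.88, from 2.07 ± 0.635 to 0.276 ± 0.0724 CPM) were lower whichever library was left out. So was Gnb4, which encodes a G protein beta subunit built of WD40 repeats, at -1.28. Actb was at -0.26 and Actg1 at -0.18, both called lower, though neither was called without vehicle replicate 1, WT replicate 1 or WT replicate 3, nor Actb without vehicle replicate 3. Tubb5 and Tuba1b, at 0.09 and 0.10, were not called. Without mutant vehicle replicate 1, 4 clients were called lower and 1 higher, and without WT replicate 1, 4 lower. With the length and GC trend removed, Actg1 was not called (edgeR adjusted p = 0.0514). With SHP099, 4 clients were higher and none lower (0 also unadjusted and by DESeq2), among them Tuba1a (from 46.9 ± 5.28 to 57.8 ± 1.58 CPM, 0.30, edgeR adjusted p = 0.0174) and Gnb2 (0.18). That count was 0 without SHP099 replicate 3, and 2 without SHP099 replicate 2, vehicle replicate 1 or vehicle replicate 3. Pairing the vehicle and SHP099 libraries by culture gave 7 clients higher and 1 lower, and removing the length and GC trend gave 2 higher.

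Of 6 tubulin folding cofactors, which finish tubulin after CCT, 1 was higher with SHP099 (Tbcb, 0.17, edgeR adjusted p = 0.0134; not called without SHP099 replicate 3, nor with the length and GC trend removed, where adjusted p = 0.115), and none was called between mutant and WT cells by edgeR, unadjusted or not, or by DESeq2. The paired fit and DESeq2 each called 2 cofactors higher with SHP099. No chaperonin-like relative was called in either comparison by edgeR, unadjusted or not, or by DESeq2, and their CPM was low. Cct6b, a second zeta subunit known from testis, stood at 0.248 to 0.327 CPM in group means, Bbs10 and Bbs12 at 2.92 to 4.87 CPM and Mkks at 21.8 to 23.4 CPM. Cct8l1 did not pass the low-count filter.

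Around HSP60, the mitochondrial HSP70 system and other matrix chaperones had 5 of 11 genes higher in mutant cells and none lower (0 also unadjusted and by DESeq2), with a median log2 fold change of 0.09. Hspa9, the mitochondrial HSP70, went from 522 ± 19.1 CPM in WT to 662 ± 1.24 CPM in mutant vehicle cells (0.34, edgeR adjusted p = 0.000458) and stood at 593 ± 4.91 CPM with SHP099 (-0.16, edgeR adjusted p = 0.0161). Dnaja3, its J-domain partner, was at 0.19 and -0.15 in these comparisons, and Trap1 at 0.26 and -0.12; the 3 genes were called higher in mutant cells whichever library was left out. With SHP099 5 of the 11 were lower and none higher (1 at an unadjusted p under 0.05, 0 by DESeq2), with a median of -0.12. That count was 1 without any single SHP099 replicate or vehicle replicate 3, 2 without WT replicate 2, and 3 without vehicle replicate 2 or WT replicate 3. It was also 2 with no low-count filter and 3 when the WT libraries were left out of the fit.

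Import machinery, which threads proteins into the matrix, had 4 of 10 genes higher in mutant cells and, with SHP099, 4 lower and 1 higher. Tomm70a, a receptor of the outer membrane, was at 209 ± 2.87, 261 ± 7.05 and 229.9 ± 7.95 CPM in WT, mutant vehicle and SHP099-treated cells (0.32 and -0.19, edgeR adjusted p = 0.000603 and 0.00855), and both calls held whichever library was left out. With the length and GC trend removed, its fold change in mutant cells was 0.19 (edgeR adjusted p = 0.0109), and with SHP099 it was -0.05 and not called (edgeR adjusted p = 0.433). Timm17b, a channel subunit of the inner membrane, was higher with SHP099 (0.23, edgeR adjusted p = 0.0137). The count with SHP099 was 2 without SHP099 replicate 1, SHP099 replicate 2, vehicle replicate 2 or vehicle replicate 3, and 3 without WT replicate 2 or with no low-count filter. In mutant cells it was 2 without SHP099 replicate 3, vehicle replicate 2 or WT replicate 3, and 1 without vehicle replicate 3 or WT replicate 2, while a fit of the WT and mutant vehicle libraries alone gave 1 higher and 1 lower.

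Mitochondrial proteases, which clear unfolded proteins, were mixed: 2 of 9 were higher in mutant cells, and with SHP099 3 were lower and 1 higher. Yme1l1, an inner membrane protease, was higher in mutant cells (0.25, edgeR adjusted p = 0.0047) whichever library was left out, but stood at 0.10 and was not called with the length and GC trend removed (edgeR adjusted p = 0.0515). Clpp, the matrix peptidase (0.16, edgeR adjusted p = 0.0259), kept its call in 2 of 9 fits without single libraries and lost it in DESeq2. With SHP099, Htra2 (-0.20), Lonp1 (-0.17) and Afg3l2 (-0.15) were lower. That count of 4 was 0 without vehicle replicate 1, 1 without SHP099 replicate 2, SHP099 replicate 3 or vehicle replicate 3, and 2 without SHP099 replicate 1 or WT replicate 2, or when the WT libraries were left out of the fit.

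Transcription factors linked to chaperonin genes under stress were looked at last. None of 6 was called with SHP099 by edgeR or DESeq2 (1 lower at an unadjusted p under 0.05), although edgeR called 1 lower with the length and GC trend removed, and 1 higher and 1 lower in the paired fit. In mutant cells Hsf2 (0.38, edgeR adjusted p = 0.0053), Atf5 (0.34, edgeR adjusted p = 0.0154) and Hsf1 (0.14, edgeR adjusted p = 0.0384) were higher and Ddit3 (-0.31, edgeR adjusted p = 0.0162) was lower. Hsf1, the main heat shock factor, kept its call in 1 of 9 fits without single libraries, whereas Hsf2 and Ddit3 kept theirs in all 9. Hsf1 was also not called by DESeq2, nor Ddit3 with the trend removed (edgeR adjusted p = 0.0544). Hsf1 stood at 50.8 ± 1.57, 55.8 ± 1.15 and 51.2 ± 2.08 CPM in WT, mutant vehicle and SHP099-treated cells, and Atf5, linked to the mitochondrial unfolded protein response, at 40.4 ± 1.56, 51.2 ± 5.19 and 54.7 ± 5.34 CPM. The count in mutant cells was 2 without vehicle replicate 3 or WT replicate 3. Chordc1, whose promoter shares the 4-unit run with Hspd1 and Hspe1 and which was looked up after the motif search, was at 0.24 ± 0.05 in mutant against WT cells (edgeR adjusted p = 0.0061) and -0.20 ± 0.05 with SHP099 (edgeR adjusted p = 0.0187; not called without SHP099 replicate 1 or 2). With the length and GC trend removed, Chordc1 stood at 0.05 (edgeR adjusted p = 0.361) and -0.04 (edgeR adjusted p = 0.528), and neither was called. Values of Arpc2 and Fam149a, which also hold the run, are not given here, so Chordc1 alone cannot show how such genes behave. A link between the run and these changes was not tested.

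**Figure D5:**
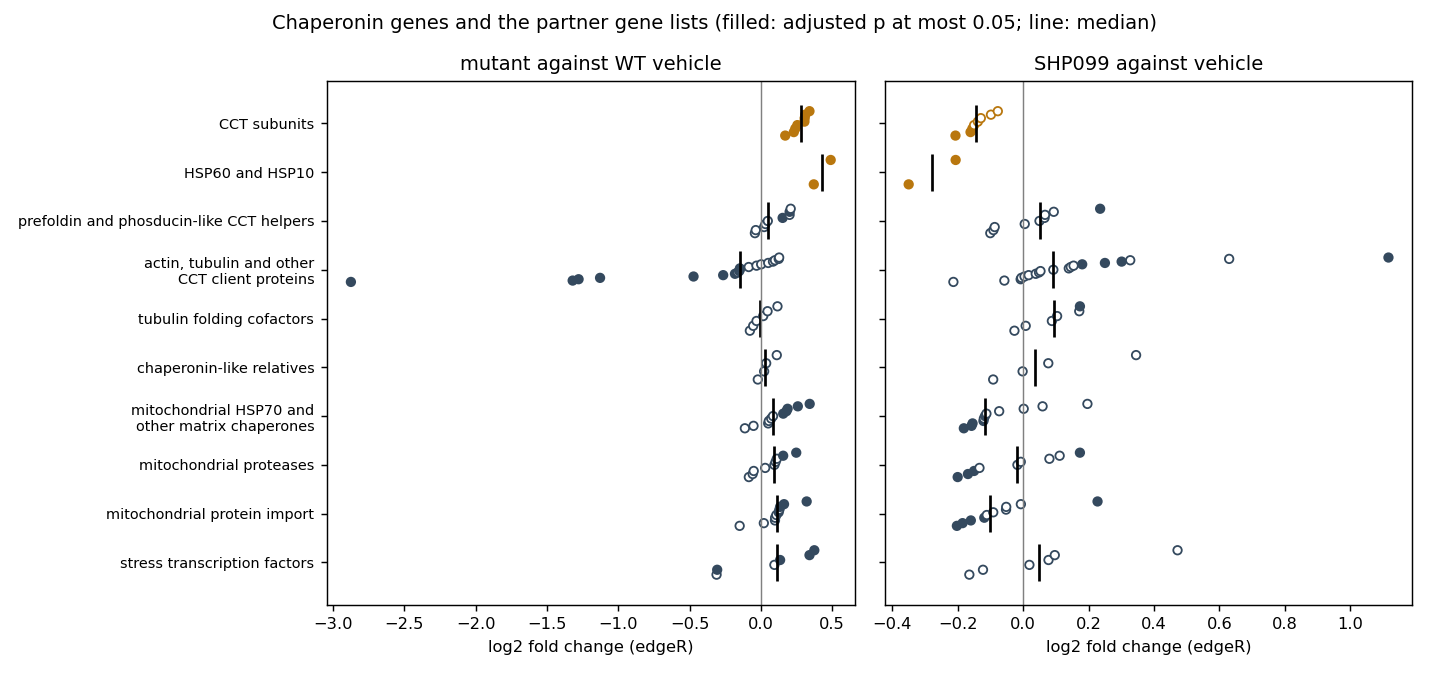
Log2 fold changes of the chaperonin genes (orange) and of the partner lists (dark blue), 1 point per gene, filled where the edgeR adjusted p is at most 0.05, with the list median as a line. CCT subunits lie right of 0 in mutant cells and left of 0 with SHP099, while the medians of CCT clients, at -0.15 and 0.09, lie on the other side.

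Positions of the genes bear on how their reads can be assigned. On GRCm38 they lie at chr17:12915701-12925067 (Tcp1), chr10:117051001-117063814 (Cct2), chr3:88297116-88321767 (Cct3), chr11:22990519-23003780 (Cct4), chr15:31590800-31601804 (Cct5), chr5:129786998-129846371 (Cct6a), chr6:85451514-85468475 (Cct7), chr16:87483326-87495873 (Cct8), chr1:55077835-55088243 (Hspd1) and chr1:55088132-55091307 (Hspe1). Apart from the head-to-head pair on chromosome 1 they are on different chromosomes. Hspd1 and Hspe1 share 112 exonic bases on opposite strands, 7.60% of the Hspe1 exons. On the strand opposite, Tcp1 shares 571 exonic bases with Acat3 and 141 with Mrpl18, Cct6a 452 with Psph, Cct7 214 with Pradc1 and Cct8 192 with Usp16. The library kit keeps strand but the strand setting of the counting is not given in the sources used here. It is therefore not known whether reads in these stretches were counted for 1 gene, the other or neither. Hspd1 has 5 and Hspe1 6 named processed copies in the annotation, and Tcp1 and Cct3 have 1 each, so levels of these genes depend on how reads with several matches were treated.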

How the data were processed

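The authors deposited raw counts per gene symbol for 9 libraries, which were made with a stranded mRNA kit, per the labels. FastQC, STAR, featureCounts, Subread and mm10 are named in the submitters' processing notes; the sources used here do not give versions, annotation release, strand setting or how multi-mapping reads were treated. No column was left unmapped (0); 1 column differs from its sample title in the last character and was taken as SHP099 replicate 3, the sole match by genotype and number.

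The members and the partner and marker lists were chosen with earlier results of these data known. In R 4.3.3 with edgeR 4.0.16, filterByExpr (minimum count 10) kept 13270 genes and left out 11151, and library sizes were scaled by TMM. All 9 libraries entered 1 quasi-likelihood fit, with group as its only term; tests were two-sided, Benjamini-Hochberg adjusted over all genes, threshold 0.05. Levels are CPM as mean ± SD. Named genes were the 10 members and up to 3 called genes per partner list and comparison with the smallest p. The 5 genes most like each chaperonin's mean (log2 CPM, prior count 2) were also named, with predicted gene models and RIKEN clones left out. Genes outside these rules (Actb, Actg1, Tubb5, Tuba1b, Hsf1, the relatives, Chordc1) were named after their values were seen. Alternatives were RLE factors, DESeq2 1.42.0, testing without a filter, a minimum of 1 CPM in any 3 libraries, a replicate block, a length and GC trend (lowess span 0.3), the compared groups alone, and each library left out; the compared groups with a block were added after seeing the data. Vehicle and SHP099 libraries of 1 number correlated at 0.54, 0.60 and 0.56 in their deviations from group means across genes, and were taken as paired by culture. Different numbers gave -0.36 to -0.23. This is not separate evidence, because deviations from a group mean sum to 0 for each gene. WT and mutant libraries of 1 number were not taken as paired (-0.13 to -0.05). Positions and lengths are from GENCODE M21 (GRCm38, also called mm10) and promoters from RefSeq GRCm38.p6; Cct4 has no entry there. The scripts were tested on simulated data. The counts carry counting error and the spread between samples only.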

Additional observations from a re-analysis of the deposited data

How the results depend on the processing

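No chaperonin gene changed sign in any of the 18 alternatives. For SHP099 against vehicle, the number called (5) was 10 with the length and GC trend removed, 9 with that trend removed and a replicate block, and 8 for the compared groups with a replicate block; leaving out single libraries gave 1 to 6. For mutant against WT vehicle, the number (10) was 6 for the compared groups with a replicate block, although these numbers do not pair the cultures. That blocked fit called 732 of 12992 genes higher, against 2248 of 13270 in the main fit. The number was 9 to 10 without single libraries. Cct7 also lost its call for the compared groups alone, a fit that called 1432 of 12992 genes higher. For SHP099-treated mutant against WT vehicle, the number (5) was 0 with the trend removed, 0 with the trend removed and a block, 3 for the compared groups alone, 0 for them with a replicate block, and 0 to 8 without single libraries. A replicate block in the fit of all 9 libraries kept these counts at 5, 10 and 5. In the last of these comparisons, however, Cct6a lost its call and Hspe1 gained one. In that comparison Cct6a was also not called with RLE factors or the minimum of 1 CPM. Hspe1 was also called there without a low-count filter. Over all genes, 2890 were called for SHP099, 5563 for the compared groups with a replicate block and 1767 without SHP099 replicate 3; for mutant against WT 4199 and, with that block, 2072. Tardbp turned from -0.15 to 0.0354 (log2) for SHP099 with the trend removed and to 0.0353 with the trend and block. The causes were not tested. With 3 libraries a group, changes as small as those of Cct3, Cct4, Cct5, Cct7 and Cct8 with SHP099 were not separable from the spread between samples in most fits. Of the 18 alternatives, Cct8 was called in 6, Cct3 and Cct4 in 3 each, Cct7 in 2 and Cct5 in 1.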
